A study of Mus musculus with 24 samples.

Results

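The nuclear receptor genes of the mouse liver were followed across 6 genotypes of fasted mice. The set holds 39 genes, chosen by name from the 35275 genes of the deposited count table, and it covers the receptors for thyroid hormone, retinoids, fatty acids, sterols, bile acids, drugs and steroid hormones together with orphan receptors. Livers came from male C57BL/6 mice of 8 to 10 weeks that had been fasted for 24 h, and each genotype gave 4 libraries. Controls were labelled wild type, and the methods of the study name littermates that carry the floxed Tsc1 and Cpt2 alleles. Tsc1 L-/- mice lack Tsc1, the inhibitor of mTorc1, and Cpt2 L-/- mice lack Cpt2, a mitochondrial enzyme of long-chain fatty acid oxidation, each through an albumin-driven Cre that acts in hepatocytes. DKO mice (Tsc1Cpt2 L-/-) lack both genes. The PPAR alpha knockout mice (Ppara KO) and the Cpt2L-/- Ppara KO mice carry a loss of Ppara, for which neither the labels nor the methods give the allele or the tissue. Whether a library holds 1 liver or several is not given in the sources used here, so the p-values measure the spread between these libraries.

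Nuclear receptors are transcription factors that bind DNA and, in many cases, a small lipophilic ligand, and they recruit corepressors or coactivators that change with the ligand. Many act as heterodimers with a retinoid X receptor, while others bind as homodimers or monomers. In liver, Ppara drives the fasting program of fatty acid oxidation and ketogenesis, Nr1h4 (Fxr) and its target Nr0b2 (Shp) restrain bile acid synthesis, Nr1h3 (Lxr alpha) senses oxysterols, Nr1i2 (Pxr) and Nr1i3 (Car) control drug metabolism, and Hnf4a and Nr5a2 (Lrh-1) maintain hepatocyte gene expression.

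Total counts per library were 14470968 to 20371204. Tsc1 was at 37.2 to 40.1 CPM (counts scaled to a common library total, with TMM factors from edgeR) in control livers, 18.1 to 28.8 CPM in Tsc1 L-/- livers and 15.3 to 17.9 CPM in DKO livers. Counts over a whole gene include any transcript that a deletion leaves, and Cpt2, at 88.2 to 104 CPM in control livers and 79.9 to 105 CPM in Cpt2 L-/- livers, did not check its label. The livers expressed hepatocyte markers strongly in all groups. The 7 hepatocyte markers summed to 75600 to 95200 CPM in control, 49000 to 74600 CPM in Tsc1 L-/-, 41100 to 67000 CPM in Cpt2 L-/-, 33300 to 41100 CPM in DKO, 61100 to 91900 CPM in Ppara KO and 48100 to 70300 CPM in Cpt2 L-/- Ppara KO livers. Of 7 Kupffer cell markers 6 were tested, of which 1 was higher and 4 were lower in DKO against control, where 19.3% of all genes were higher and 17.1% lower. Of 5 cholangiocyte markers 1 was lower and 0 were higher there, and of 6 lymphocyte markers 1 could be tested and did not pass. The libraries fell into sets of 12 that the genotypes do not define. In the libraries of Cpt2 L-/-, Ppara KO and Cpt2 L-/- Ppara KO livers, Cd1d2, Hist1h2al and Hist1h2bq, chosen after their values were seen, were at least 10 times lower in every library than in every library of control, Tsc1 L-/- and DKO livers. Cd1d2, for instance, was at 18.9 to 61.6 CPM in control livers and 0.106 to 0.764 CPM in Cpt2 L-/- livers. The comparisons of Cpt2 L-/- with control, DKO with Cpt2 L-/- and Ppara KO with control, and both interactions, cross these sets, and there genotype and set cannot be told apart. The comparisons of Tsc1 L-/- and DKO with control, of DKO with Tsc1 L-/- and of Cpt2 L-/- Ppara KO with Cpt2 L-/- or Ppara KO lie within a set. Ppara KO and Cpt2 L-/- Ppara KO libraries were also the least alike within their groups, with mean correlations of a library to its own group of 0.945 to 0.962 and 0.943 to 0.968, against 0.962 to 0.981 in the other groups.

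Hnf4a and Rxra were the most abundant receptor transcripts in control livers. By FPKM, the authors' value scaled by gene length and library total, the Hnf4a level was 254 ± 41.7 (SD, n = 4) and the level of Rxra, the main heterodimer partner in liver, was 154 ± 10.7. Nr1i3, Ppara and Nr1h4 followed at FPKM levels of 75.0 ± 29.8, 72.4 ± 11.5 and 71.3 ± 14, and these 3 did not differ beyond their spread. Next came the FPKM levels of Nr1h3 at 57.3 ± 2.53 and Nr1i2 at 45.4 ± 7.72. From Esrra, at 28.1 ± 4.40, down to Nr1h5, at 1.13 ± 0.619, the FPKM levels fell with no wide gap, and most neighbours overlapped. Esrrg, Nr4a1, Nr2f1, Nr4a2, Nr4a3, Hnf4g and Vdr were below an FPKM of 1.

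**Figure D1:**
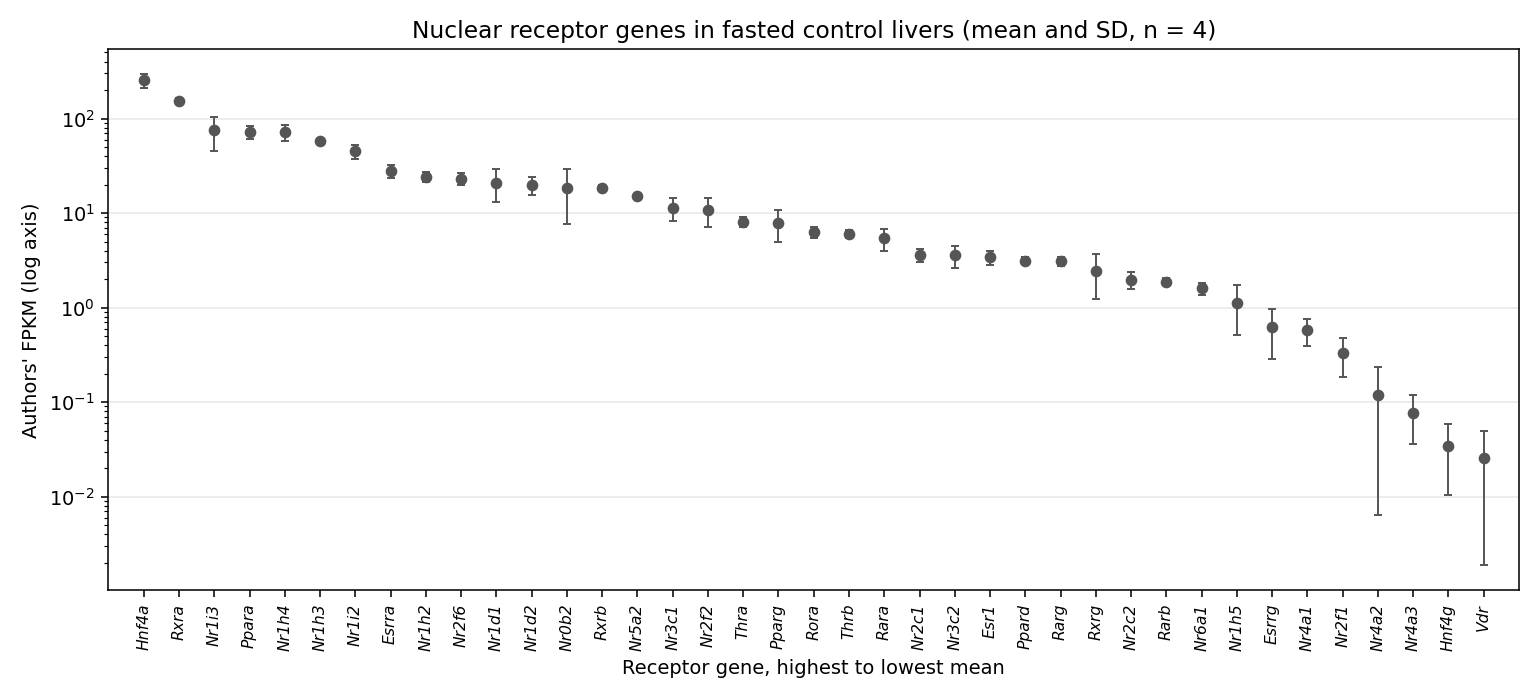
FPKM of the 39 receptor genes in control livers on a log axis, from the highest to the lowest mean; points are means and bars SD of 4 libraries. Hnf4a (254) and Rxra (154) stand above the rest, and Vdr (0.0259) is the lowest.

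Of the 39 genes, 34 passed the filter on low counts in all 10 comparisons. Hnf4g and Vdr, the receptor for vitamin D, passed in none, and Nr4a3 passed only in the Cpt2 by Ppara interaction. Hnf4g had 4, 1, 1 and 4 counts in the control libraries, and Vdr had 1, 4, 3 and 0. Vdr reached its highest counts in Ppara KO livers, with 6, 9, 4 and 15. Nr2f1 and Esrrg dropped below the filter in the comparison of Cpt2 L-/- Ppara KO with Ppara KO. Of the 39 genes, 31 were differentially expressed in at least 1 comparison, at an edgeR adjusted p-value under 0.05 over all genes tested. The 8 others were the 3 genes above, Rarg, Nr1h2, Rxrg, Nr2c1 and Nr2f1.

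The promoters of a few receptor genes whose transcripts moved in the comparisons below were read from RefSeq. The RefSeq promoter table (GRCm38.p6) holds 55 starts for 36 of the 39 genes, and the 250 bases before each start were searched on both strands for 4 motifs. AGGTCA, the half-site that most nuclear receptors recognize, was in 10 of the 55 receptor promoters (18.2%), and in 14% of all 32851 promoters of the table. TCAAGGTCA, the extended half-site of monomeric receptors such as Nr5a2 and Esrra, which contains the half-site, was in 0 receptor promoters and in 0.387% of all promoters. CACGTG, the E-box of clock and Myc-type factors, was in 4 receptor promoters (7.27%) and in 6.02% of all. TGACGTCA, the cAMP response element, was in 0 receptor promoters and in 1.55% of all. In the coordinates of the count table, which are those of GRCm38, Nr0b2 (ENSMUSG00000037583) spans chr4:133553376-133556536, Nr5a2 (ENSMUSG00000026398) chr1:136843584-136960427, Rxra (ENSMUSG00000015846) chr2:27676440-27762957 and Pparg (ENSMUSG00000000440) chr6:115361221-115490401. The 4 promoters shown are those of Nr0b2, Nr5a2, Rxra and Pparg, each written 5′ to 3′ on the strand of the gene with the motif matches in capitals.
Nr0b2, chr4:133553126-133553375, + strand: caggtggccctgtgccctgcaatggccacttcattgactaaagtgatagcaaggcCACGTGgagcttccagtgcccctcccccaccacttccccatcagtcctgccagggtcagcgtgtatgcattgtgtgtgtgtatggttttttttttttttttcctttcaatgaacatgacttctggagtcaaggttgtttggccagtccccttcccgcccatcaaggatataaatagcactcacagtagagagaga
Nr5a2, chr1:136960449-136960698, - strand: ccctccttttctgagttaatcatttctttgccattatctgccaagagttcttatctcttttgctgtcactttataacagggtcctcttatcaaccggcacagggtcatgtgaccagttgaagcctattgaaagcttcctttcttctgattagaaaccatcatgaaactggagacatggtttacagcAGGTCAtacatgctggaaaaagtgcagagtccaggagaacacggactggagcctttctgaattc
Rxra, chr2:27709042-27709291, + strand: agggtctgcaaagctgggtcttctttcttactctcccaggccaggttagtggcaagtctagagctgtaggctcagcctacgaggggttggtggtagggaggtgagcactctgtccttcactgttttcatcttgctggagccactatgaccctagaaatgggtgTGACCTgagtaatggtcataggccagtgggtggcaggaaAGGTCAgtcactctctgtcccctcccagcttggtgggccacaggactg
Pparg, chr6:115360894-115361143, + strand: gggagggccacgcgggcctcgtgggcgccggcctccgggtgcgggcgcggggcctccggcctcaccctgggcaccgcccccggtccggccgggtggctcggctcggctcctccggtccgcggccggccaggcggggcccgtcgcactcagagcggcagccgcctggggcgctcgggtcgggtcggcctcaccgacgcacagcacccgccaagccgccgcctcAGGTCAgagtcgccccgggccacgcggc
The Nr0b2 window held an E-box from 195 to 190 bases before the start and no half-site. Nr5a2 had 1 half-site from 64 to 59 bases before this start, and its other start, downstream, had no match. Rxra had a half-site on each strand at this start, from 87 to 82 and from 48 to 43 bases before it, and no match at its upstream start. The Pparg window, at the first of 3 starts, held a half-site from 28 to 23 bases before the start, and the next start downstream held another from 9 to 4 bases before it. A match is a description of the letters, and binding was not measured.

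**Figure D2:**
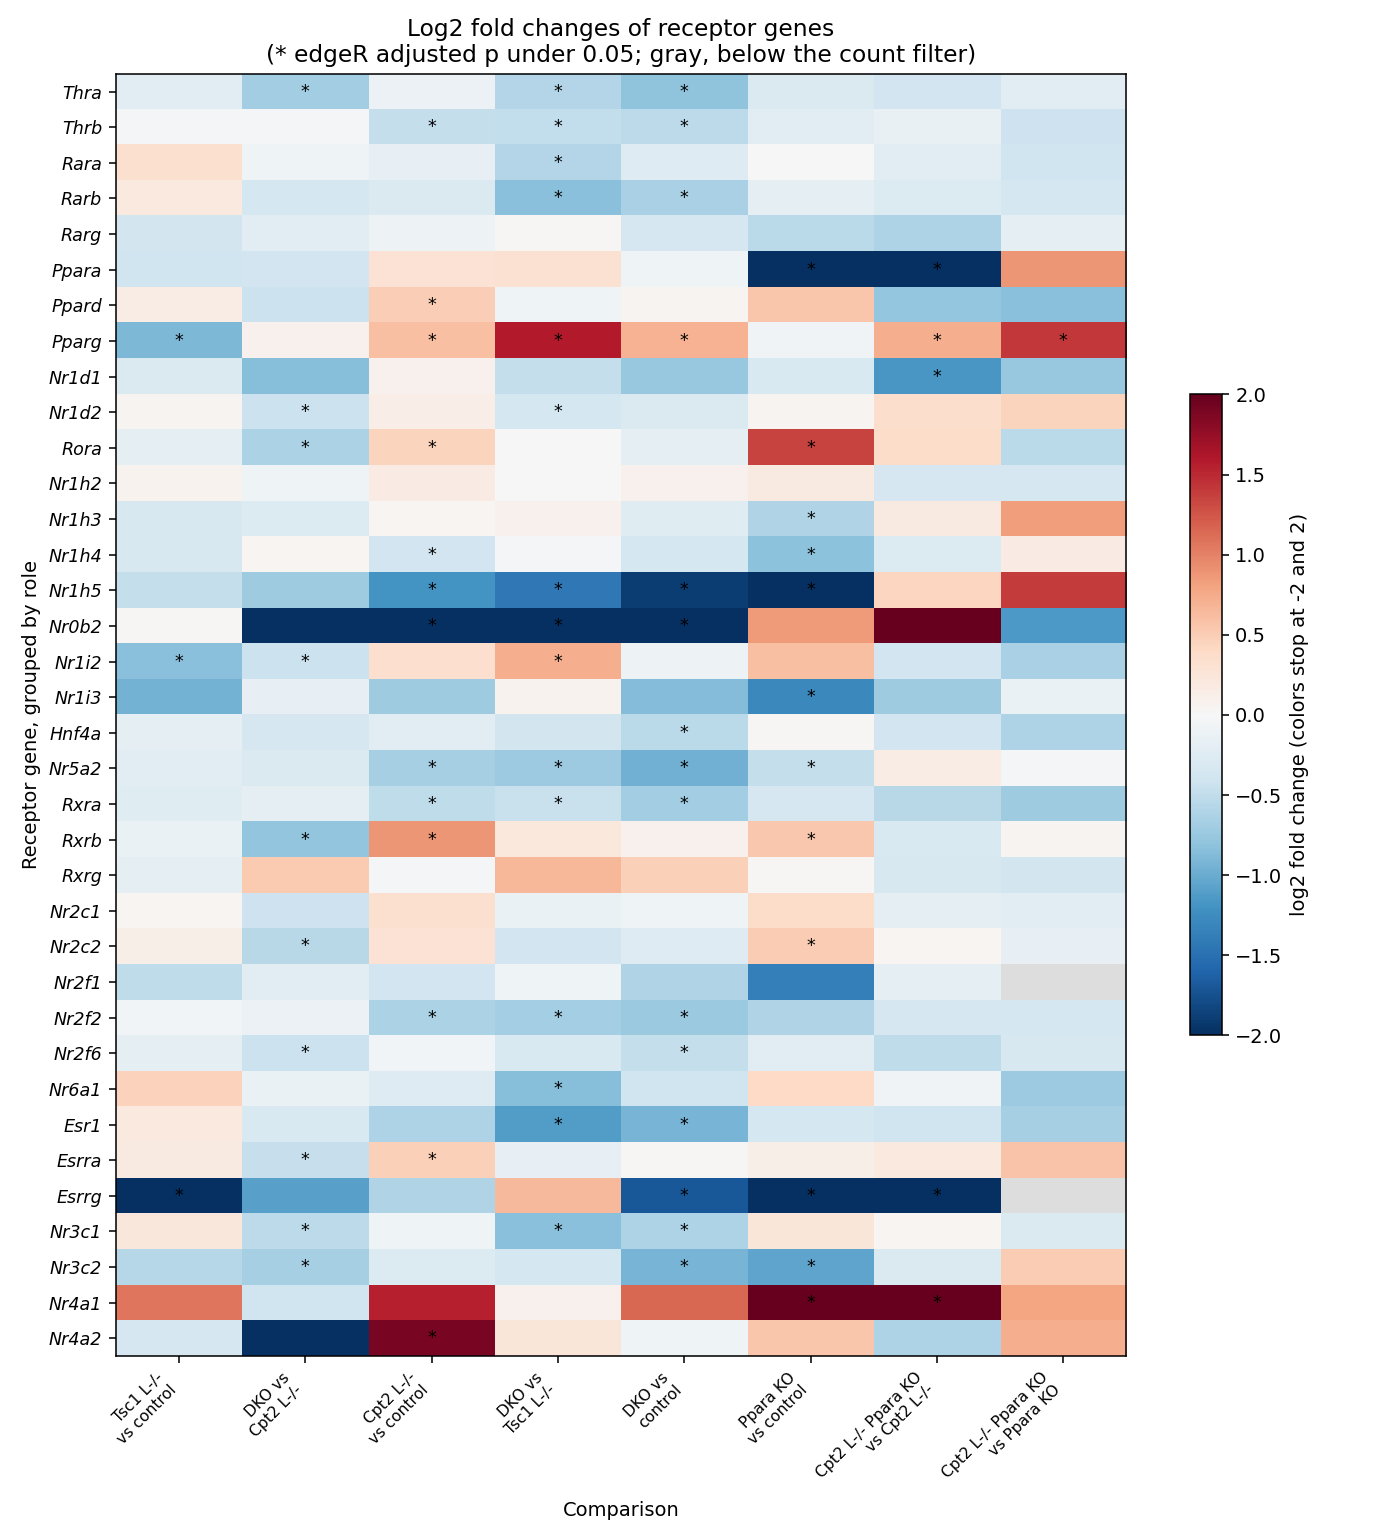
Log2 fold changes of the 36 receptor genes tested (rows, grouped by role) in 8 comparisons of genotypes (columns); asterisks mark an edgeR adjusted p-value under 0.05 gray marks genes below the filter, and colors stop at -2 and 2. The DKO columns are mostly blue, Nr0b2 and Nr1h5 are low in DKO and Cpt2 L-/- livers, and Esrrg and Ppara are low in the columns of Ppara loss.

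Most receptor genes that changed in DKO livers fell. Against control, 15 of 36 tested receptor genes changed, 1 higher and 14 lower, while 36.4% of all genes changed (19.3% higher and 17.1% lower). The receptors had a median log2 fold change of -0.37, against 0.02 over all genes tested. Against Tsc1 L-/- livers, 15 changed in DKO livers, 2 higher and 13 lower, against a background of 32.2% (16.9% higher and 15.2% lower), with a median of -0.23 beside 0.00 for all genes. Against Cpt2 L-/- livers, 10 receptor genes were lower and 0 higher in DKO livers (33 of 36 log2 fold changes below 0), against a background of 18.3% (10.9% higher and 7.4% lower), a comparison that crosses the library sets. Loss of Tsc1 alone lowered 3 receptor genes and raised 0, against a background of 6.64% (4.16% higher and 2.48% lower). Among the same 36 genes, 9 had an unadjusted p under 0.05 in that comparison.

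Cpt2 L-/- livers differed from control in 13 receptor genes, 6 higher and 7 lower, beside a background of 31.0% (16.2% higher and 14.9% lower). Ppara KO livers differed from control in 12 receptor genes, 4 higher and 8 lower, beside 27.5% (14.8% and 12.7%) of all genes. Both comparisons cross the library sets, so genotype and set cannot be told apart in them. When Ppara was lost in addition to Cpt2, 5 receptor genes changed, 2 higher and 3 lower, against a background of 13.0% (6.88% and 6.1%). Between Cpt2 L-/- Ppara KO and Ppara KO livers, 1 of 34 tested receptor genes changed, Pparg, and 0.868% of all genes did (0.462% higher and 0.407% lower). This fit held only these groups, and 7 of the 34 had an unadjusted p under 0.05. Of their log2 fold changes, 11 were above 0 and 23 below. With all 24 libraries in one fit, more receptor genes passed. The share of receptor genes that changed was thus near the background in the comparisons of Cpt2 L-/- and Ppara KO with control, at 36.1% and 33.3%. Across the 81 calls of receptor genes in the 10 comparisons, the direction never reversed under an alternative, and 34 calls passed the threshold under every alternative run. In the paragraphs below, log2 fold changes are given with their standard error, and the calls that fell short under another setting are named with the libraries or settings that did so, the replicate block excepted, since the replicate numbers did not pair the libraries.

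Among the fatty acid receptors, Pparg was the gene that moved in most comparisons, 6 of 10. Pparg, a driver of lipid storage that is low in normal liver, was at 8.45, 14.5, 17.6 and 19.5 CPM in the control livers and at 7.64, 8.19, 10.6 and 5.81 CPM in Tsc1 L-/- livers (log2 fold change -0.89 ± 0.21 and edgeR adjusted p = 0.0175). Levels were 21.2, 22, 21.2 and 27.1 CPM in Cpt2 L-/- livers and 23.5, 26.5, 20.2 and 25.5 CPM in DKO livers. All libraries that lacked Cpt2 but kept Ppara thus lay above every control library. Pparg rose 1.52-fold in Cpt2 L-/- against control (log2 fold change 0.60 ± 0.21 and edgeR adjusted p = 0.0336) and 1.61-fold in DKO against control (log2 fold change 0.69 ± 0.21 and edgeR adjusted p = 0.0147). The rise in DKO over Tsc1 L-/- livers was 2.99-fold, with no overlap (log2 fold change 1.58 ± 0.21 and edgeR adjusted p = 2.98e-05). Ppara KO livers, at 18.6, 10.6, 15.8 and 12.2 CPM, overlapped control, and Cpt2 L-/- Ppara KO livers held the highest levels, 46, 36.1, 35 and 34.3 CPM. That was 1.65-fold above Cpt2 L-/- (log2 fold change 0.72 ± 0.16 and edgeR adjusted p = 0.0185) and 2.65-fold above Ppara KO livers (log2 fold change 1.41 ± 0.23 and edgeR adjusted p = 0.0307). Pparg was higher wherever Cpt2 loss was compared within matched Tsc1 or Ppara status. In bulk liver, fewer cells of a type and less RNA per cell cannot be told apart for this or any other gene.

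Ppara, the receptor that activates fatty acid oxidation in fasting, checked the knockout labels. The control livers held 216, 265, 274 and 277 CPM of Ppara, and the Ppara KO livers 44.6, 13.6, 13.2 and 37.9 CPM. In the Cpt2 L-/- background the values were 272, 308, 383 and 306 CPM, and 89.9, 26.2, 45.7 and 41.1 CPM with Ppara lost. Neither pair of groups overlapped, and reads remained in every knockout library. Ppara fell 9.41-fold in Ppara KO (log2 fold change -3.23 ± 0.41 and edgeR adjusted p = 0.000586) and 6.26-fold in Cpt2 L-/- Ppara KO livers (log2 fold change -2.65 ± 0.34 and edgeR adjusted p = 0.00173). With Tsc1 L-/- livers at 138 to 254 CPM and DKO livers at 168 to 269 CPM, no comparison among the other 4 groups passed for Ppara. The Tsc1 L-/- difference from control was a log2 fold change of -0.40 ± 0.18 with an edgeR adjusted p of 0.205, and that of Cpt2 L-/- a log2 fold change of 0.29 ± 0.18 with an edgeR adjusted p of 0.223. Ppard, a widely expressed fatty acid receptor, was at 10.5, 13.3, 9.3 and 9.7 CPM in the control livers, 15.2, 10.8, 18.4 and 15.8 CPM in Cpt2 L-/-, 15.6, 20.4, 15.7 and 11.2 CPM in Ppara KO and 4.53, 8.2, 10.8 and 11.5 CPM in Cpt2 L-/- Ppara KO livers. It rose in Cpt2 L-/- against control with overlapping groups (log2 fold change 0.49 ± 0.18 and edgeR adjusted p = 0.0416). The Cpt2 by Ppara interaction passed for Ppard (log2 fold change -1.32 ± 0.36 and edgeR adjusted p = 0.0155). Both of these tests cross the library sets, so genotype and set cannot be told apart. Ppard passed in no comparison within a set.

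Of the 12 Ppara target genes of the list, most were lower in Ppara KO livers than in control, and 6 were higher in Cpt2 L-/- livers. In Ppara KO against control 10 of 12 targets fell and 1 rose (median log2 fold change -2.47, against 0.02 for all genes). Of all genes, 12.7% were lower and 14.8% higher there. Cyp4a14, a microsomal fatty acid hydroxylase, went from 8571 to 23.8 CPM on average (log2 fold change -8.48 ± 0.80 and edgeR adjusted p = 0.000134), and Ehhadh, a peroxisomal oxidation enzyme, from 3319 to 123 CPM on average (log2 fold change -4.76 ± 0.32 and edgeR adjusted p = 2.91e-05). When Ppara was lost in the Cpt2 L-/- background, 6 of 12 fell and 0 rose (median -2.13), beside 6.1% of all genes that were lower. In Cpt2 L-/- livers 6 of 12 were higher than in control and 0 lower (median 0.97), beside 16.2% of all genes that were higher. This comparison, like that of Ppara KO with control, crosses the library sets. Pdk4, the kinase that shuts pyruvate dehydrogenase, rose from 17.3 to 545 CPM on average (log2 fold change 4.97 ± 0.51 and edgeR adjusted p = 1.04e-05). In Tsc1 L-/- livers 3 targets fell and 0 rose (median -0.93), beside 2.48% of all genes that were lower. DKO livers had 4 targets higher and 1 lower than control (median 0.28), and 7 higher and 0 lower than Tsc1 L-/- livers (median 1.18). Of all genes, 36.4% and 32.2% changed in these comparisons. The Pparg call in Tsc1 L-/- against control was lost without control replicates 3 or 4 or Tsc1 L-/- replicate 4, or with limma on FPKM (adjusted p up to 0.0641). The Pparg call in Cpt2 L-/- against control was lost without control replicates 1 or 2 or Cpt2 L-/- replicate 4 (adjusted p up to 0.101). The Ppard call in Cpt2 L-/- against control was lost without control replicates 1, 3 or 4 or Cpt2 L-/- replicates 1, 3 or 4, or with no filter, or with all 24 libraries in one fit (adjusted p up to 0.145). The Pparg call in Cpt2 L-/- Ppara KO against Cpt2 L-/- was lost without Cpt2 L-/- replicates 1, 2 or 3 (adjusted p up to 0.0762). The Pparg call in Cpt2 L-/- Ppara KO against Ppara KO was lost without Ppara KO replicates 2, 3 or 4 or Cpt2 L-/- Ppara KO replicates 1, 2 or 3 (adjusted p up to 0.107).

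**Figure D3:**
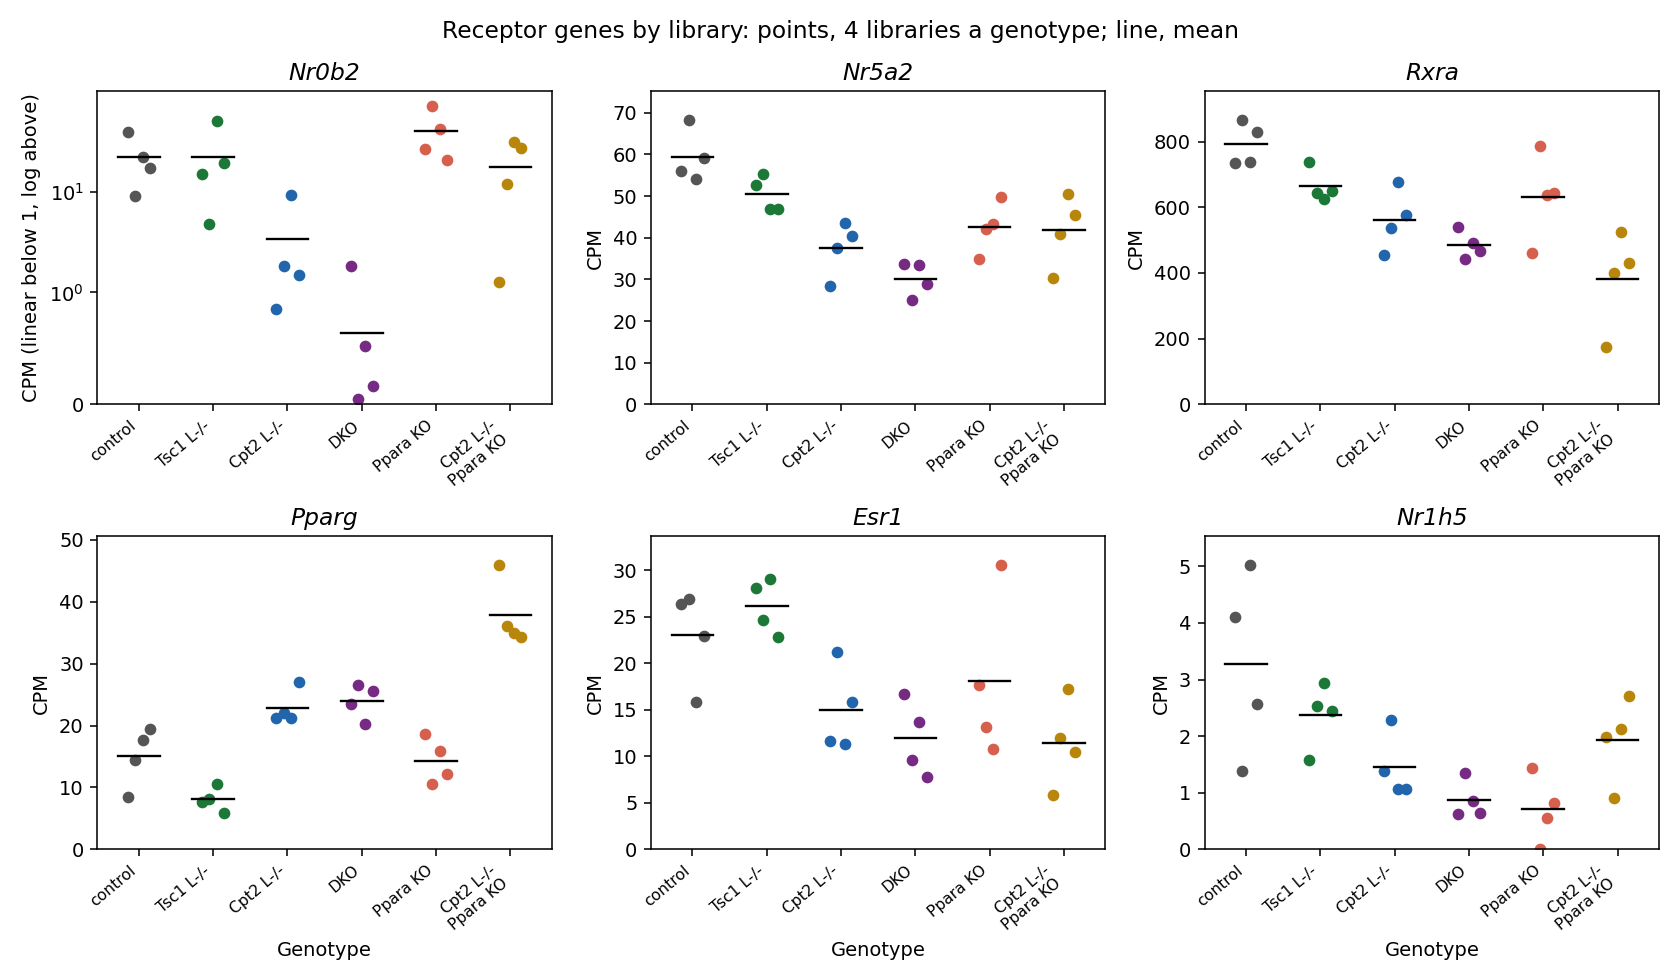
CPM of Nr0b2, Nr5a2, Rxra, Pparg, Esr1 and Nr1h5 in each of the 24 libraries by genotype; points are libraries and lines group means, and the Nr0b2 axis is linear below 1 and logarithmic above. Nr0b2 spans 0.0515 to 1.81 CPM in DKO livers against 8.95 to 39.4 CPM in control livers, and Pparg is highest in Cpt2 L-/- Ppara KO livers.

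Against control, Nr0b2 showed the largest log2 fold change of the 36 receptor genes tested in DKO livers. Nr0b2 encodes Shp, a receptor without a DNA-binding domain that represses bile acid synthesis, and its levels were 39.4, 8.95, 21.8 and 17.1 CPM in control livers and 15, 4.78, 49.6 and 19.2 CPM in Tsc1 L-/- livers. Levels were 0.852, 1.84, 9.29 and 1.5 CPM in Cpt2 L-/- livers and 1.81, 0.0515, 0.52 and 0.16 CPM in DKO livers. The DKO counts behind these values were 32, 1, 8 and 3, against 653, 130, 425 and 295 in control libraries. All DKO libraries lay below all control and Tsc1 L-/- libraries, while Cpt2 L-/- replicate 3 reached into the control range. Nr0b2 fell 34.3-fold in DKO against control (log2 fold change -5.10 ± 1.07 and edgeR adjusted p = 0.00269) and 34.8-fold against Tsc1 L-/- (log2 fold change -5.12 ± 1.07 and edgeR adjusted p = 0.00283), with sizes that depend on the few DKO reads. The fall in Cpt2 L-/- against control was 6.53-fold (log2 fold change -2.71 ± 0.89 and edgeR adjusted p = 0.0344). Ppara KO livers had 26.6, 70.5, 41.7 and 20.8 CPM, and Cpt2 L-/- Ppara KO livers 1.28, 12, 30.7 and 26.8 CPM. The latter ranged widely and did not pass against Cpt2 L-/- (log2 fold change 2.40 ± 0.87 and edgeR adjusted p = 0.0891) or Ppara KO (log2 fold change -1.15 ± 0.67 and edgeR adjusted p = 0.267).

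Nr1h4, the bile acid receptor Fxr that induces Nr0b2, changed less. Its values were 139, 129, 161 and 168 CPM in the control livers, 99.3, 130.0, 127 and 102 CPM in Cpt2 L-/- and 102, 74.9, 90 and 72.7 CPM in Ppara KO livers. Nr1h4 fell 1.76-fold in Ppara KO with no overlap (log2 fold change -0.82 ± 0.16 and edgeR adjusted p = 0.00537) and 1.31-fold in Cpt2 L-/- livers with overlap (log2 fold change -0.39 ± 0.14 and edgeR adjusted p = 0.0434). Nr1h5, Fxr beta, a sterol receptor of rodents, was at 4.1, 1.38, 5.03 and 2.56 CPM in the control livers, 1.58, 2.53, 2.93 and 2.44 CPM in Tsc1 L-/-, 1.38, 2.28, 1.06 and 1.06 CPM in Cpt2 L-/- and 0.621, 1.34, 0.845 and 0.641 CPM in DKO livers. DKO livers thus lay below all control and Tsc1 L-/- libraries. The fall was 3.74-fold in DKO against control (log2 fold change -1.90 ± 0.40 and edgeR adjusted p = 0.00123), 2.69-fold against Tsc1 L-/- (log2 fold change -1.43 ± 0.40 and edgeR adjusted p = 0.0109) and 2.29-fold in Cpt2 L-/- against control (log2 fold change -1.19 ± 0.38 and edgeR adjusted p = 0.0235). Ppara KO libraries had 1.44, 0, 0.555 and 0.82 CPM, from 32, 0, 8 and 12 counts, and Cpt2 L-/- Ppara KO libraries 1.98, 0.904, 2.13 and 2.7 CPM. The Ppara KO difference from control was a log2 fold change of -2.15 ± 0.70 with an edgeR adjusted p of 0.0437, and the interaction of Cpt2 and Ppara loss a log2 fold change of 2.57 ± 0.83 with an edgeR adjusted p of 0.0323.

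Nr1h3, the oxysterol receptor Lxr alpha, was at 116, 133, 107 and 123 CPM in the control livers, 99.9, 63.1, 59 and 92.8 CPM in Ppara KO and 179, 143, 128 and 108 CPM in Cpt2 L-/- Ppara KO livers. It fell in Ppara KO without overlap (log2 fold change -0.60 ± 0.19 and edgeR adjusted p = 0.0414), and its Cpt2 by Ppara interaction passed (log2 fold change 0.79 ± 0.28 and edgeR adjusted p = 0.0467). Both of these tests cross the library sets, so genotype and set cannot be told apart. Nr1h3 passed in no comparison within a set. Its paralog Nr1h2 (Lxr beta) had group means of 45.1 to 57.4 CPM and changed in 0 comparisons. Of 7 genes fixed as Fxr and Shp targets, 5 were tested. In Cpt2 L-/- and in DKO livers 3 and 3 of them fell against control and 0 rose (medians -1.38 and -1.66). Of all genes, 14.9% and 17.1% were lower. The list includes Cyp7a1, a gene of the bile acid synthesis that Shp restrains, so the count of falls does not measure the activity of Fxr or Shp. Cyp7a1, the rate-limiting enzyme of bile acid synthesis, went from 259 to 15.5 CPM on average (log2 fold change -4.04 ± 0.70 and edgeR adjusted p = 0.000665) in DKO against control. Abcb11, the bile salt export pump, went from 286 to 36.1 CPM on average (log2 fold change -2.97 ± 0.32 and edgeR adjusted p = 6.26e-06). In Ppara KO livers 4 of 5 fell (median -0.83), beside 12.7% of all genes that were lower. Of 8 Lxr targets, 5 fell and 1 rose in DKO against control (median -0.74), and 0 fell and 0 rose in Tsc1 L-/- (median 0.22). Of all genes, 36.4% and 6.64% changed in these comparisons. Abcg5, a sterol exporter, went from 109.8 to 42 CPM on average (log2 fold change -1.37 ± 0.20 and edgeR adjusted p = 5.94e-05), while Lpcat3, a phospholipid remodelling enzyme, rose from 95.9 to 182 CPM on average (log2 fold change 0.94 ± 0.11 and edgeR adjusted p = 7.28e-06). The Nr0b2 call in Cpt2 L-/- against control was lost without control replicates 1, 3 or 4 or Cpt2 L-/- replicates 1, 2 or 4, or with no filter (adjusted p up to 0.096). The Nr1h4 call in Cpt2 L-/- against control was lost without control replicates 1, 3 or 4 or Cpt2 L-/- replicates 1, 3 or 4, or with no filter, or with limma on FPKM, or with all 24 libraries in one fit (adjusted p up to 0.18). The Nr1h5 call in Cpt2 L-/- against control was lost without control replicates 1 or 3 or Cpt2 L-/- replicates 1, 3 or 4, or with limma on FPKM, or with all 24 libraries in one fit (adjusted p up to 0.112). The Nr1h5 call in DKO against Tsc1 L-/- was lost with all 24 libraries in one fit (adjusted p up to 0.0523). The Nr1h3 call in Ppara KO against control was lost without control replicates 1, 2, 3 or 4 or Ppara KO replicates 2 or 3, or with limma on FPKM (adjusted p up to 0.109). The Nr1h5 call in Ppara KO against control was lost without control replicates 1, 3 or 4 or Ppara KO replicates 3 or 4, or with no filter (adjusted p up to 0.119). The Nr1h3 call in the Cpt2 by Ppara interaction was lost without control replicates 1, 2, 3 or 4 or Cpt2 L-/- replicates 1, 2, 3 or 4 or Ppara KO replicates 2 or 3 or Cpt2 L-/- Ppara KO replicates 1, 2 or 3, or with no filter, or with limma on FPKM (adjusted p up to 0.104). The Nr1h5 call in the Cpt2 by Ppara interaction was lost without control replicates 1 or 3 or Cpt2 L-/- replicates 1, 3 or 4 or Ppara KO replicate 3 or Cpt2 L-/- Ppara KO replicate 4 (adjusted p up to 0.0709).

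Of the receptors of hepatocyte identity, Nr5a2 fell in Cpt2 L-/-, DKO and Ppara KO livers. Nr5a2 encodes Lrh-1, an activator of bile acid synthesis genes and of Nr0b2. The control livers held 56, 68.3, 54.2 and 59.1 CPM, the Cpt2 L-/- livers 28.5, 37.6, 43.6 and 40.4 CPM and the DKO livers 33.6, 25, 33.5 and 28.8 CPM. Every Cpt2 L-/- and DKO library was below every control library. Nr5a2 fell 1.59-fold in Cpt2 L-/- (log2 fold change -0.67 ± 0.13 and edgeR adjusted p = 0.000853) and 1.94-fold in DKO against control (log2 fold change -0.96 ± 0.13 and edgeR adjusted p = 2.44e-05). Against Tsc1 L-/- livers, at 52.6, 55.4, 46.8 and 46.9 CPM, the fall in DKO was 1.66-fold (log2 fold change -0.73 ± 0.13 and edgeR adjusted p = 0.000402). Ppara KO livers had 34.8, 42.2, 43.4 and 49.9 CPM (log2 fold change -0.48 ± 0.15 and edgeR adjusted p = 0.0351), and Cpt2 L-/- Ppara KO livers 30.3 to 50.4 CPM. Hnf4a, which most hepatocyte genes depend on, was at 929 to 1410 CPM in control and 716 to 877 CPM in DKO livers (log2 fold change -0.54 ± 0.16 and edgeR adjusted p = 0.0124), and passed in no other comparison. Of the 7 hepatocyte markers, 4 were lower and 0 higher in DKO against control, and 3 and 0 in Cpt2 L-/-. In Ppara KO against control 1 was lower and 1 higher. In Tsc1 L-/- against control 1 was lower and 0 higher, and Nr5a2, Nr0b2 and Hnf4a did not pass. Of all genes, 17.1%, 14.9%, 12.7% and 2.48% were lower in these 4 comparisons. The part of the markers in the fall of Nr5a2, Nr0b2 and Hnf4a was not tested. The Nr5a2 call in Ppara KO against control was lost without control replicates 1, 2, 3 or 4 or Ppara KO replicates 1, 2 or 3, or with no filter (adjusted p up to 0.0962). The Hnf4a call in DKO against control was lost without control replicate 1 (adjusted p up to 0.0564).

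Nr1i2 was lowest in Tsc1 L-/- livers. Nr1i2, the xenobiotic receptor Pxr, was at 145, 129, 121 and 92.4 CPM in control livers and 59, 67.2, 75.9 and 71 CPM in Tsc1 L-/- livers, which lay below all other groups. It fell 1.78-fold (log2 fold change -0.83 ± 0.14 and edgeR adjusted p = 0.00172). The summed hepatocyte markers of Tsc1 L-/- livers were also all below those of control livers. By the test 1 of 7 was lower and 0 higher, beside 2.48% of all genes that were lower. The part of these markers in the Nr1i2 result was not tested. Cpt2 L-/- livers had 158, 156, 184 and 117 CPM and DKO livers 116, 106, 116 and 110.0 CPM. The DKO libraries were above every Tsc1 L-/- library (log2 fold change 0.73 ± 0.14 and edgeR adjusted p = 0.000822) and below every Cpt2 L-/- library (log2 fold change -0.43 ± 0.14 and edgeR adjusted p = 0.0426). Ppara KO livers ranged over 111, 251, 247 and 139 CPM, and Cpt2 L-/- Ppara KO livers over 95.9, 110.0, 145 and 120.0 CPM (log2 fold change -0.99 ± 0.34 and edgeR adjusted p = 0.0458 for the Cpt2 by Ppara interaction). Nr1i3, the xenobiotic receptor Car, varied widely between libraries, with 227, 138, 321 and 232 CPM in control livers and 35.7, 181, 98.2 and 160.0 CPM in Tsc1 L-/- livers. Ppara KO livers, at 121, 103, 100 and 54.6 CPM, did not overlap control (log2 fold change -1.28 ± 0.29 and edgeR adjusted p = 0.0102), and the other comparisons did not pass. Of 10 Car and Pxr targets, 1 rose and 0 fell in Tsc1 L-/- livers, 3 rose and 3 fell in DKO, and 4 rose and 1 fell in Ppara KO against control (medians -0.31, -0.34 and 0.71). Of all genes, 6.64%, 36.4% and 27.5% changed in these comparisons. Cyp2b10, the classic Car target, rose from 5.56 to 81.7 CPM on average (log2 fold change 3.90 ± 0.64 and edgeR adjusted p = 0.00307) in Tsc1 L-/- livers, and from 5.56 to 868 CPM on average (log2 fold change 7.29 ± 1.02 and edgeR adjusted p = 0.0012) in Ppara KO livers. It varied widely between the Ppara KO libraries (SD 637 CPM), and their comparison with control crosses the library sets. Cyp3a11, the classic Pxr target, fell from 2210 to 809 CPM on average (log2 fold change -1.43 ± 0.26 and edgeR adjusted p = 0.000436) in DKO livers. It was also lower than control in Cpt2 L-/- livers (1001 CPM, log2 fold change -1.15 ± 0.26 and edgeR adjusted p = 0.00294). In Ppara KO livers it was at 860 CPM (log2 fold change -1.37 ± 0.31 and edgeR adjusted p = 0.01). Nr1i3 overlaps Tomm40l on the opposite strand, and the strand setting of the counting is not given in the sources used here. The Nr1i2 call in DKO against Cpt2 L-/- was lost without Cpt2 L-/- replicates 1, 2 or 3 or DKO replicates 1, 2, 3 or 4, or with no filter, or with limma on FPKM, or with all 24 libraries in one fit (adjusted p up to 0.196). The Nr1i2 call in the Cpt2 by Ppara interaction was lost without control replicates 2, 3 or 4 or Cpt2 L-/- replicates 1, 2 or 3 or Ppara KO replicates 2 or 3 or Cpt2 L-/- Ppara KO replicates 1 or 2, or with no filter, or with limma on FPKM (adjusted p up to 0.1).

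The retinoid X receptors, the shared heterodimer partners, moved in opposite directions in Cpt2 L-/- livers. Rxra was at 736, 866, 737 and 829 CPM in the control livers, 455, 537, 676 and 576 CPM in Cpt2 L-/- and 540.0, 444, 491 and 468 CPM in DKO livers, so both groups lay below control. It fell 1.42-fold in Cpt2 L-/- (log2 fold change -0.50 ± 0.13 and edgeR adjusted p = 0.00658) and 1.61-fold in DKO against control (log2 fold change -0.69 ± 0.13 and edgeR adjusted p = 0.000493), and 1.36-fold in DKO against Tsc1 L-/- (log2 fold change -0.44 ± 0.13 and edgeR adjusted p = 0.0144). Cpt2 L-/- Ppara KO livers ranged from 174 to 525 CPM and did not pass. Rxrb, a widely expressed member, was at 55.3, 53.1, 46 and 50.4 CPM in the control livers, 44.6, 48.5, 45.7 and 47.9 CPM in Tsc1 L-/- and 49.1, 52.5, 55.5 and 58 CPM in DKO livers. Levels were 92.6, 84, 103 and 97 CPM in Cpt2 L-/-, 61, 71.2, 84.1 and 81.4 CPM in Ppara KO and 67.7, 88.3, 82.5 and 68.6 CPM in Cpt2 L-/- Ppara KO livers. The 12 libraries of the latter groups all lay above the 12 of the former, which is also the split of the library sets. Rxrb and Rora were the 2 of 34 receptor genes with that property, which 0.767% of 12260 genes shared. Rxrb rose 1.84-fold in Cpt2 L-/- against control (log2 fold change 0.88 ± 0.10 and edgeR adjusted p = 4.06e-06), fell 1.73-fold in DKO against Cpt2 L-/- (log2 fold change -0.79 ± 0.10 and edgeR adjusted p = 5.43e-05) and rose 1.45-fold in Ppara KO against control (log2 fold change 0.54 ± 0.14 and edgeR adjusted p = 0.0197). None of the comparisons within a set passed for Rxrb, the closest being DKO against Tsc1 L-/- (log2 fold change 0.22 ± 0.10 and edgeR adjusted p = 0.0927). Rxrg, low in liver, had 4.17 to 7.32 CPM as group means and changed in 0 comparisons. The Rxra call in Cpt2 L-/- against control was lost with all 24 libraries in one fit (adjusted p up to 0.128). The Rxra call in DKO against Tsc1 L-/- was lost with all 24 libraries in one fit (adjusted p up to 0.167). The Rxrb call in Ppara KO against control was lost without control replicates 3 or 4 or Ppara KO replicate 3 (adjusted p up to 0.0626).

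**Figure D4:**
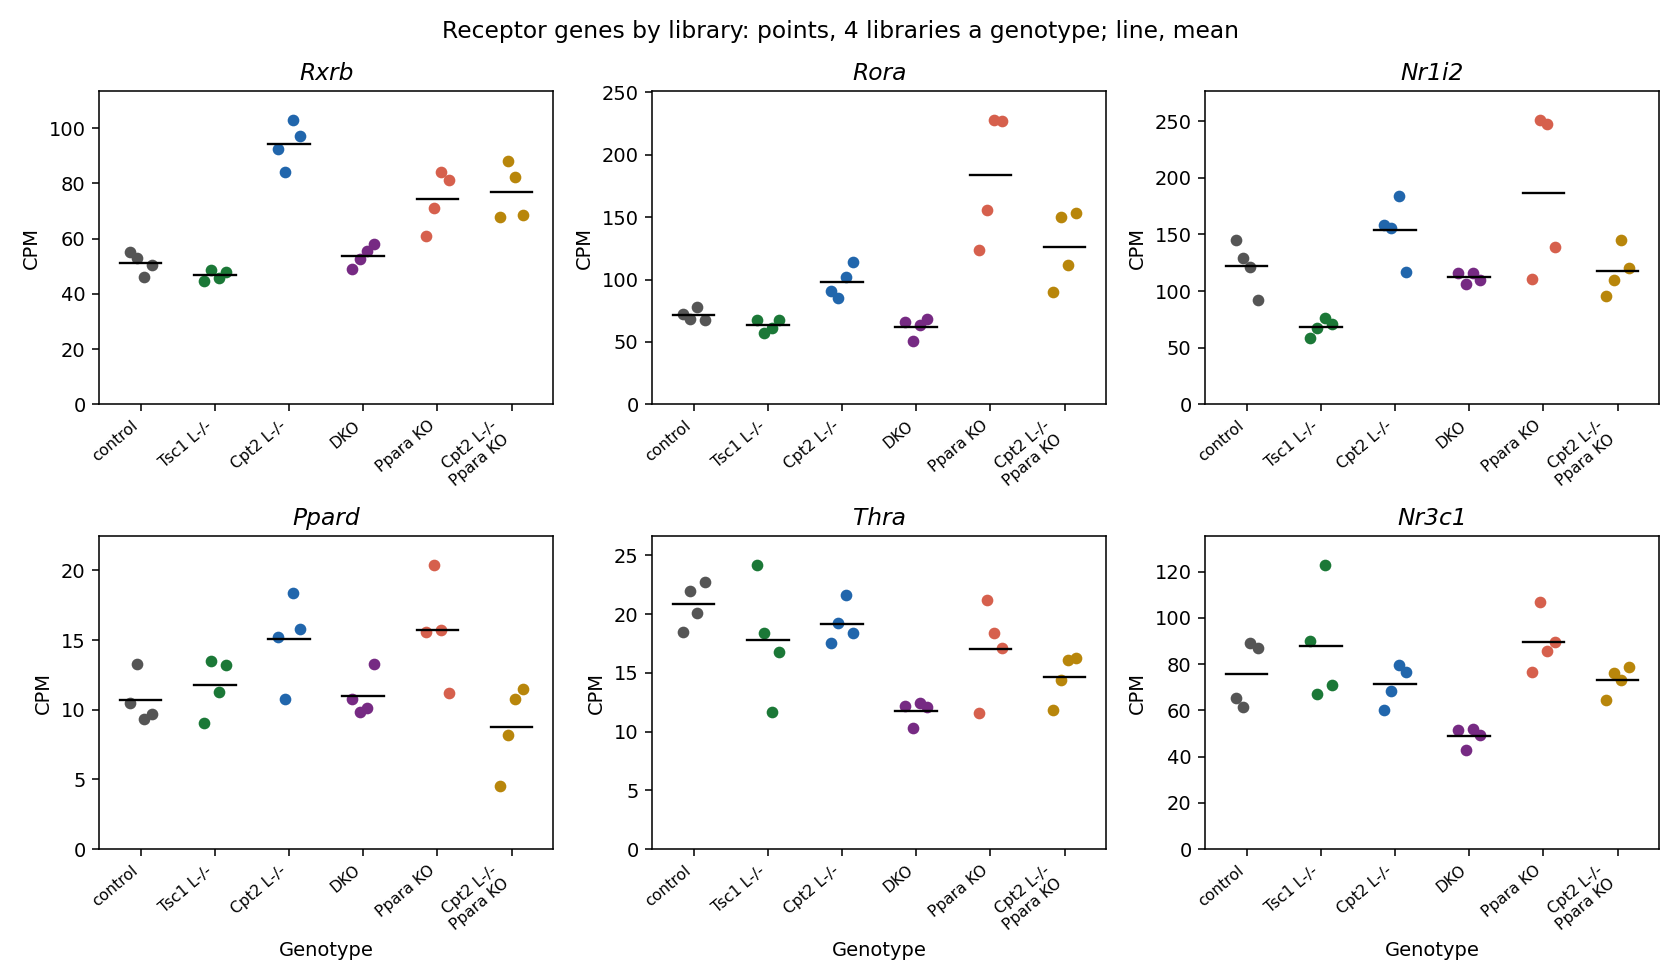
CPM of Rxrb, Rora, Nr1i2, Ppard, Thra and Nr3c1 in each of the 24 libraries by genotype; points are libraries and lines group means. Rxrb and Rora are higher in every library of the Cpt2 L-/-, Ppara KO and Cpt2 L-/- Ppara KO groups than in every library of the other groups, Nr1i2 is lowest in Tsc1 L-/- livers, and Thra and Nr3c1 are lowest in DKO livers by mean.

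Of the 5 receptors for thyroid hormone and retinoic acid, 3 fell in DKO against control, 4 against Tsc1 L-/- and 1 against Cpt2 L-/- livers, and 0 rose in any comparison. Thra, thyroid hormone receptor alpha, was at 18.5, 22, 20.1 and 22.7 CPM in control livers and 17.5, 19.2, 21.6 and 18.4 CPM in Cpt2 L-/- livers. It was at 12.2, 10.3, 12.4 and 12.1 CPM in DKO livers, below every control and Cpt2 L-/- library. The fall was 1.75-fold against control (log2 fold change -0.81 ± 0.16 and edgeR adjusted p = 0.000893), 1.61-fold against Cpt2 L-/- (log2 fold change -0.69 ± 0.16 and edgeR adjusted p = 0.00763) and 1.5-fold against Tsc1 L-/- (log2 fold change -0.59 ± 0.16 and edgeR adjusted p = 0.0103), where Tsc1 L-/- livers had 24.2, 18.4, 11.7 and 16.8 CPM. Thra and Nr1d1 overlap on opposite strands at 1 end, over chr11:98767932-98769006. Reads of that stretch cannot be told apart without the strand setting. Thrb, the main thyroid hormone receptor of liver, fell in Cpt2 L-/- (log2 fold change -0.48 ± 0.16 and edgeR adjusted p = 0.0264), in DKO against control (log2 fold change -0.52 ± 0.16 and edgeR adjusted p = 0.0163) and in DKO against Tsc1 L-/- livers (log2 fold change -0.49 ± 0.16 and edgeR adjusted p = 0.0241), from 35.5 to 40 CPM in control to 22.3 to 34.8 CPM in Cpt2 L-/- and 22.6 to 31.2 CPM in DKO livers. Rarb, a retinoic acid receptor that is itself a retinoic acid target, was at 6.58, 7.09, 5.09 and 5.46 CPM in the control livers, 7.09, 8.47, 5.67 and 6.31 CPM in Tsc1 L-/- and 3.27, 2.62, 5.01 and 4.38 CPM in DKO livers. The DKO libraries were below both groups (log2 fold change -0.65 ± 0.21 and edgeR adjusted p = 0.0208 against control and log2 fold change -0.84 ± 0.21 and edgeR adjusted p = 0.00461 against Tsc1 L-/-). Rara fell in DKO against Tsc1 L-/- (log2 fold change -0.58 ± 0.17 and edgeR adjusted p = 0.0157), and Rarg changed in 0 comparisons.

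Targets of these receptors divided. Of 5 retinoic acid receptor targets, 4 were tested in each comparison. In Cpt2 L-/- and DKO livers 3 and 3 of 4 fell against control and 0 rose (medians -1.29 and -1.29). Of all genes, 14.9% and 17.1% were lower. Dhrs3, a retinaldehyde reductase, fell from 86.7 to 38.2 CPM on average (log2 fold change -1.17 ± 0.15 and edgeR adjusted p = 1.38e-05) in DKO. In Ppara KO livers 2 rose and 1 fell (median 0.81), beside 27.5% of all genes that changed. Of 5 thyroid hormone receptor targets, 2 rose and 1 fell in DKO against control (median -0.22), beside 36.4% of all genes that changed. Stellate cells hold most retinoids of the liver. Their 7 markers summed to 176 to 228 CPM in control livers, 113 to 214 CPM in Tsc1 L-/-, 120 to 148 CPM in Cpt2 L-/- and 90.5 to 117 CPM in DKO livers. All 7 were lower in DKO against control, beside 17.1% of all genes. In DKO against Tsc1 L-/- 2 were lower and 0 higher. In Cpt2 L-/- against control, which crosses the library sets, 3 were lower and 0 higher. The log2 fold change of Rarb there was -0.29 ± 0.21, with an edgeR adjusted p of 0.304. The part of these markers in the fall of Rarb was not tested. The Thrb call in Cpt2 L-/- against control was lost without control replicates 2, 3 or 4 or Cpt2 L-/- replicates 1, 2 or 4, or with limma on FPKM (adjusted p up to 0.096). The Thrb call in DKO against control was lost without DKO replicates 2 or 3, or with limma on FPKM (adjusted p up to 0.107). The Thrb call in DKO against Tsc1 L-/- was lost without Tsc1 L-/- replicate 3 or DKO replicates 2 or 3, or with limma on FPKM (adjusted p up to 0.105). The Rarb call in DKO against control was lost without control replicates 1 or 2 or DKO replicates 1 or 2, or with all 24 libraries in one fit (adjusted p up to 0.0745). The Rara call in DKO against Tsc1 L-/- was lost without Tsc1 L-/- replicate 3 or DKO replicate 3, or with limma on FPKM, or with all 24 libraries in one fit (adjusted p up to 0.106).

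Rora rose in Cpt2 L-/- and Ppara KO livers. Rora, an activator of clock genes, was at 72.8, 68.5, 77.7 and 67.8 CPM in the control livers, 67.5, 56.9, 61 and 67.7 CPM in Tsc1 L-/- and 65.9, 50.9, 64 and 68.3 CPM in DKO livers. It reached 90.6, 85.3, 102 and 114 CPM in Cpt2 L-/-, 124, 156, 228 and 227 CPM in Ppara KO and 89.7, 150.0, 112 and 153 CPM in Cpt2 L-/- Ppara KO livers. Like Rxrb, it split the library sets without overlap. Rora rose 2.55-fold in Ppara KO (log2 fold change 1.35 ± 0.21 and edgeR adjusted p = 0.00148) and 1.36-fold in Cpt2 L-/- against control (log2 fold change 0.45 ± 0.11 and edgeR adjusted p = 0.0063), and was lower in DKO than in Cpt2 L-/- livers (log2 fold change -0.63 ± 0.11 and edgeR adjusted p = 0.00138). Within a set, Ppara loss in the Cpt2 L-/- background gave a log2 fold change of 0.36 ± 0.20 with an edgeR adjusted p of 0.235. Nr1d1, the clock repressor Rev-erb alpha, was at 70, 73.7, 46.4 and 62.3 CPM in Cpt2 L-/- and 21.3, 23.9, 24.8 and 42.5 CPM in Cpt2 L-/- Ppara KO livers, with no overlap (log2 fold change -1.17 ± 0.24 and edgeR adjusted p = 0.014). Control livers ranged over 39.6, 46.8, 75.1 and 74.5 CPM and Tsc1 L-/- livers over 77.8, 21.8, 25.9 and 66.7 CPM, so that Nr1d1 varied widely within groups. Nr1d2, Rev-erb beta, was lower in DKO, at 72.4 to 85.3 CPM, than in Cpt2 L-/-, at 98.9 to 108 CPM (log2 fold change -0.43 ± 0.12 and edgeR adjusted p = 0.0153), and lower than in Tsc1 L-/- livers (log2 fold change -0.35 ± 0.12 and edgeR adjusted p = 0.0271). Of 5 Rev-erb and Ror targets, 3 rose and 0 fell in Ppara KO against control (median 1.06), beside 14.8% of all genes that were higher. Arntl, the clock activator Bmal1, rose from 3.68 (SD 2.58) to 24.6 (SD 17.1) CPM on average (log2 fold change 2.73 ± 0.61 and edgeR adjusted p = 0.01). In DKO against control 0 of 4 tested rose or fell (median -0.12), beside 36.4% of all genes that changed. The Rora call in Cpt2 L-/- against control was lost with all 24 libraries in one fit (adjusted p up to 0.0885). The Nr1d1 call in Cpt2 L-/- Ppara KO against Cpt2 L-/- was lost without Cpt2 L-/- Ppara KO replicate 2 (adjusted p up to 0.0528). The Nr1d2 call in DKO against Cpt2 L-/- was lost without DKO replicate 2, or with limma on FPKM (adjusted p up to 0.101). The Nr1d2 call in DKO against Tsc1 L-/- was lost without Tsc1 L-/- replicates 1 or 3 or DKO replicates 1, 2 or 3, or with no filter, or with limma on FPKM (adjusted p up to 0.212). The Rora call in the Cpt2 by Ppara interaction was lost without Cpt2 L-/- replicate 4 or Ppara KO replicate 3 (adjusted p up to 0.0521).

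**Figure D5:**
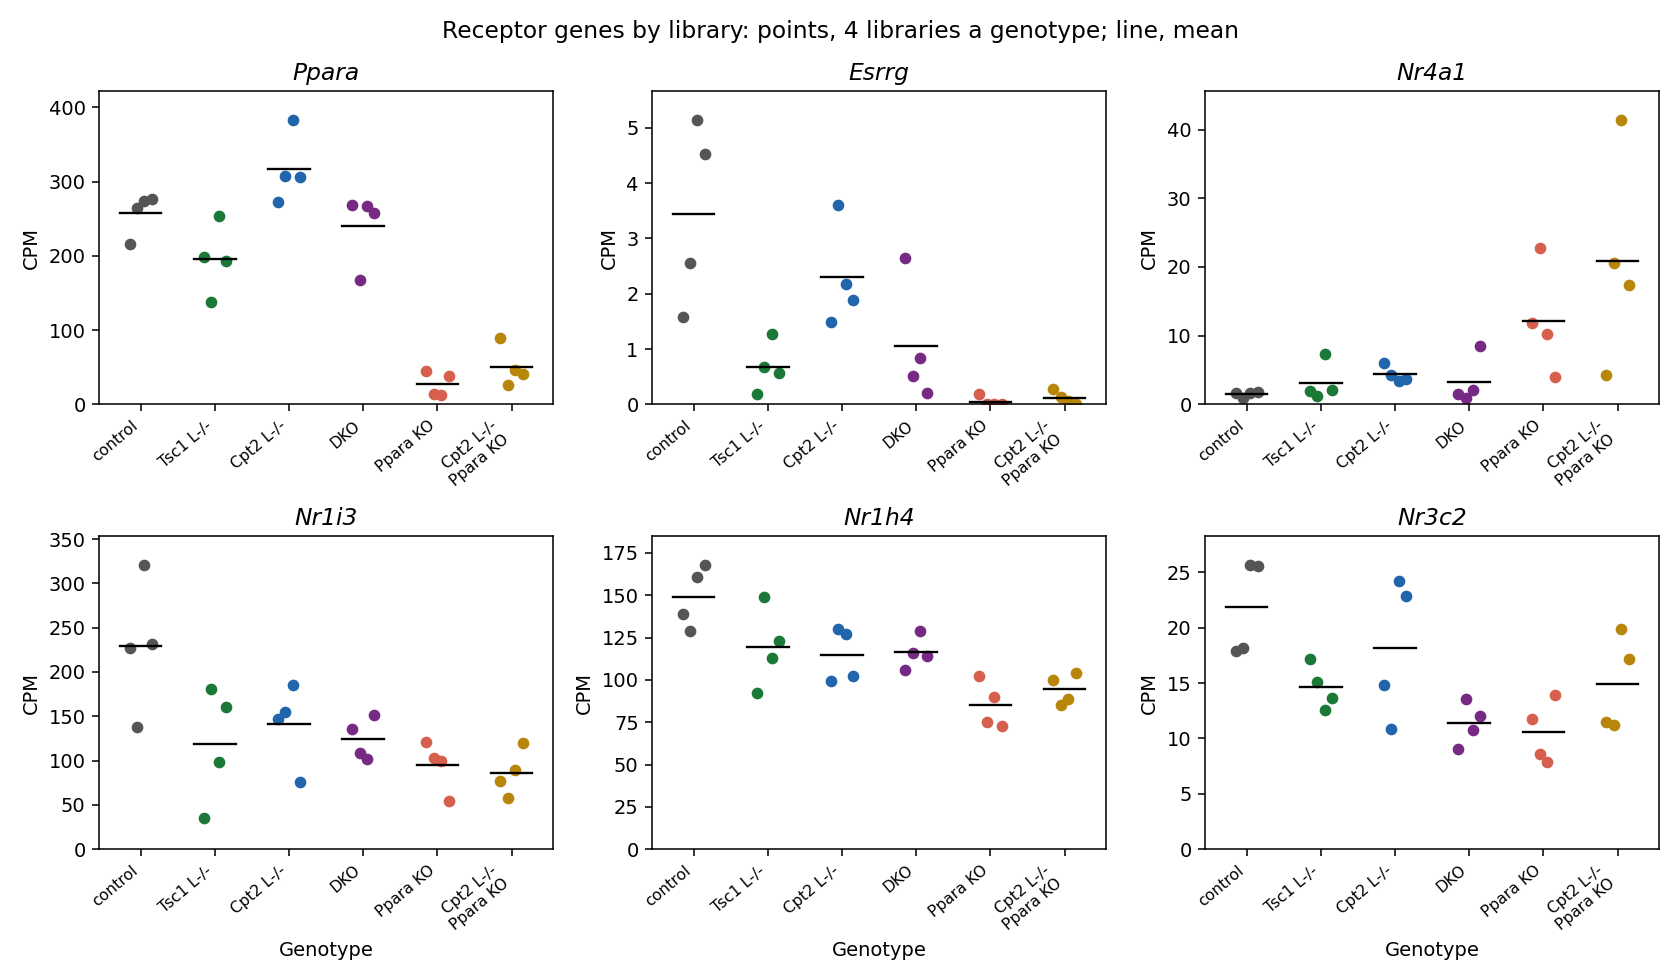
CPM of Ppara, Esrrg, Nr4a1, Nr1i3, Nr1h4 and Nr3c2 in each of the 24 libraries by genotype; points are libraries and lines group means. By mean, Ppara and Esrrg are lowest in the groups without Ppara, Nr4a1 is highest there by mean, and Nr1i3, Nr1h4 and Nr3c2 are lower in Ppara KO than in control livers without overlap.

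Esrrg was nearly lost with Ppara. Esrrg, an estrogen-related receptor that activates oxidative metabolism, had counts of 26, 37, 100 and 78 in control and 4, 0, 0 and 0 in Ppara KO libraries. In the Cpt2 L-/- background the counts were 28, 57, 37 and 34, and 4, 2, 1 and 0 with Ppara lost. Neither pair overlapped (log2 fold change -5.70 ± 0.79 and edgeR adjusted p = 0.00096 for Ppara KO against control, and log2 fold change -4.32 ± 0.64 and edgeR adjusted p = 0.00301 for Cpt2 L-/- Ppara KO against Cpt2 L-/-). The size of such a fit depends on the prior count added to the few reads. Esrrg was also lower in Tsc1 L-/- livers, at 0.182, 0.683, 1.27 and 0.562 CPM, than in control, at 1.57, 2.55, 5.14 and 4.53 CPM, with no overlap (log2 fold change -2.35 ± 0.63 and edgeR adjusted p = 0.0339). DKO livers had 2.65, 0.515, 0.845 and 0.214 CPM, of which replicate 1 lay in the control range (log2 fold change -1.69 ± 0.60 and edgeR adjusted p = 0.0354). Esr1, estrogen receptor alpha, was at 26.4, 26.9, 15.8 and 22.9 CPM in the control livers, 28.1, 24.6, 29.1 and 22.8 CPM in Tsc1 L-/-, 11.6, 21.2, 11.3 and 15.8 CPM in Cpt2 L-/- and 16.7, 9.62, 13.7 and 7.74 CPM in DKO livers. It fell 2.18-fold in DKO against Tsc1 L-/- without overlap (log2 fold change -1.12 ± 0.24 and edgeR adjusted p = 0.00168) and 1.91-fold against control (log2 fold change -0.93 ± 0.24 and edgeR adjusted p = 0.00571), while Cpt2 L-/- against control did not pass (log2 fold change -0.62 ± 0.24 and edgeR adjusted p = 0.0532). Esrra, which works with Ppargc1a on mitochondrial genes, rose in Cpt2 L-/- livers to 72.8 to 108 CPM from 53.6 to 81.3 CPM (log2 fold change 0.48 ± 0.15 and edgeR adjusted p = 0.0227) and was lower in DKO than in Cpt2 L-/- livers (log2 fold change -0.46 ± 0.15 and edgeR adjusted p = 0.0455). Esrra overlaps Trmt112 on the opposite strand. The Esrrg call in Tsc1 L-/- against control was lost without control replicates 2, 3 or 4 or Tsc1 L-/- replicates 1, 2 or 4, or with no filter, or with all 24 libraries in one fit (adjusted p up to 0.091). The Esrrg call in DKO against control was lost without control replicates 3 or 4 or DKO replicates 2, 3 or 4, or with no filter, or with all 24 libraries in one fit (adjusted p up to 0.103). The Esrra call in Cpt2 L-/- against control was lost without control replicates 3 or 4 or Cpt2 L-/- replicates 3 or 4, or with all 24 libraries in one fit (adjusted p up to 0.117). The Esrra call in DKO against Cpt2 L-/- was lost without Cpt2 L-/- replicates 2, 3 or 4 or DKO replicates 1, 3 or 4, or with all 24 libraries in one fit (adjusted p up to 0.179).

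Both corticosteroid receptors fell in DKO livers. Nr3c1, the glucocorticoid receptor, was at 65.3, 61.3, 89.2 and 87 CPM in the control livers, 90.2, 67.1, 123 and 71 CPM in Tsc1 L-/- and 60.1, 68.5, 79.8 and 76.6 CPM in Cpt2 L-/- livers. DKO livers, at 51.4, 43, 51.9 and 49.3 CPM, were below every library of these groups. Nr3c1 fell 1.53-fold against control (log2 fold change -0.61 ± 0.17 and edgeR adjusted p = 0.00975), 1.78-fold against Tsc1 L-/- (log2 fold change -0.83 ± 0.17 and edgeR adjusted p = 0.00124) and 1.44-fold against Cpt2 L-/- (log2 fold change -0.52 ± 0.17 and edgeR adjusted p = 0.0426). Nr3c2, the mineralocorticoid receptor, was at 17.9, 18.2, 25.7 and 25.6 CPM in the control livers, 9.09, 13.6, 10.8 and 12 CPM in DKO and 11.8, 8.6, 7.9 and 13.9 CPM in Ppara KO livers, and neither of the latter overlapped control. It fell 1.9-fold in DKO (log2 fold change -0.93 ± 0.22 and edgeR adjusted p = 0.00317) and 2.07-fold in Ppara KO (log2 fold change -1.05 ± 0.23 and edgeR adjusted p = 0.00891). Tsc1 L-/- livers, at 17.2, 15.1, 12.6 and 13.7 CPM, also lay below every control library, but the test did not pass (log2 fold change -0.58 ± 0.22 and edgeR adjusted p = 0.125). DKO against Tsc1 L-/- did not pass for Nr3c2. Cpt2 L-/- livers had 14.8, 10.9, 24.2 and 22.9 CPM, from which DKO differed with overlap (log2 fold change -0.66 ± 0.22 and edgeR adjusted p = 0.0442). Of 7 glucocorticoid receptor targets, 2 fell and 0 rose in DKO against control (median -0.81), a smaller share than the 36.4% of all genes that changed. Tsc22d3, an anti-inflammatory target also called Gilz, went from 174 to 40 CPM on average (log2 fold change -2.11 ± 0.48 and edgeR adjusted p = 0.00385), and Pck1, a gluconeogenic enzyme, from 5385 to 2583 CPM on average (log2 fold change -1.04 ± 0.17 and edgeR adjusted p = 0.000104). Tsc22d3 was as low in Cpt2 L-/- livers, at 38.2 CPM on average (log2 fold change -2.19 ± 0.48 and edgeR adjusted p = 0.00352). Nr3c1 did not pass there (log2 fold change -0.09 ± 0.17 and edgeR adjusted p = 0.724). Ppara KO livers had 54.1 CPM of Tsc22d3 on average (log2 fold change -1.69 ± 0.38 and edgeR adjusted p = 0.00988). In Ppara KO livers 2 rose and 2 fell against control (median 0.68), beside 27.5% of all genes that changed. The Nr3c1 call in DKO against control was lost with limma on FPKM (adjusted p up to 0.0998). The Nr3c1 call in DKO against Cpt2 L-/- was lost without Cpt2 L-/- replicates 2, 3 or 4 or DKO replicates 1, 2, 3 or 4, or with limma on FPKM, or with all 24 libraries in one fit (adjusted p up to 0.142). The Nr3c2 call in DKO against Cpt2 L-/- was lost without Cpt2 L-/- replicates 3 or 4 or DKO replicates 1, 2, 3 or 4, or with no filter, or with limma on FPKM, or with all 24 libraries in one fit (adjusted p up to 0.139).

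Nr4a1 was higher in livers without Ppara. Nr4a1 is an orphan receptor induced within minutes by hormones and stress, and its levels were 1.63, 0.895, 1.64 and 1.74 CPM in control livers and 11.8, 22.8, 10.3 and 3.97 CPM in Ppara KO livers, without overlap. It rose 8.1-fold (log2 fold change 3.02 ± 0.48 and edgeR adjusted p = 0.00189). In the Cpt2 L-/- background the levels were 6.07, 4.25, 3.41 and 3.73 CPM, and 4.32, 20.6, 41.4 and 17.4 CPM with Ppara lost, where replicate 1 lay within the Cpt2 L-/- range (log2 fold change 2.25 ± 0.53 and edgeR adjusted p = 0.022). Cpt2 L-/- livers also lay above control without overlap, but the test did not pass (log2 fold change 1.55 ± 0.64 and edgeR adjusted p = 0.0809). Tsc1 L-/- livers had 1.94, 1.23, 7.26 and 2.06 CPM and DKO livers 1.58, 0.875, 2.15 and 8.49 CPM, with 1 high library in each group. Nr4a2, a related receptor, had counts of 2, 2, 18 and 9 in control and 21, 14, 34 and 48 in Cpt2 L-/- libraries, which overlapped (log2 fold change 1.90 ± 0.68 and edgeR adjusted p = 0.0412). In DKO libraries the counts were 9, 4, 7 and 9 (log2 fold change -1.99 ± 0.69 and edgeR adjusted p = 0.0516 against Cpt2 L-/-). Nr4a3 had at most 48 counts in a library, in Cpt2 L-/- Ppara KO replicate 3. The Nr4a1 call in Cpt2 L-/- Ppara KO against Cpt2 L-/- was lost without Cpt2 L-/- replicates 2, 3 or 4 or Cpt2 L-/- Ppara KO replicate 2, or with no filter, or with limma on FPKM (adjusted p up to 0.0767). The Nr4a2 call in Cpt2 L-/- against control was lost without control replicates 1, 2 or 4 or Cpt2 L-/- replicates 3 or 4, or with no filter, or with all 24 libraries in one fit (adjusted p up to 0.129).

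Among the 6 orphan receptors of the NR2 and NR6 groups, Nr2f2 and Nr2f6 fell in DKO livers against control. Nr6a1 fell in DKO livers only against Tsc1 L-/- livers. Nr2f2, COUP-TFII, is known from endothelial and stellate cells as well as hepatocytes, and was at 38.6, 33.6, 58.4 and 56.2 CPM in the control livers, 45.6, 40.6, 36.6 and 55.9 CPM in Tsc1 L-/-, 26, 31.9, 36.7 and 26.2 CPM in Cpt2 L-/- and 31.8, 26.4, 22 and 29.7 CPM in DKO livers. It fell 1.55-fold in Cpt2 L-/- with overlap (log2 fold change -0.63 ± 0.18 and edgeR adjusted p = 0.0143), and without overlap 1.68-fold in DKO against control (log2 fold change -0.75 ± 0.19 and edgeR adjusted p = 0.00439) and 1.61-fold against Tsc1 L-/- (log2 fold change -0.69 ± 0.19 and edgeR adjusted p = 0.00851). Endothelial markers summed to 325 to 373 CPM in control livers, 208 to 396 CPM in Cpt2 L-/- and 196 to 325 CPM in DKO livers, and 4 of 7 were lower and 0 higher in DKO against control, next to 7 of 7 stellate markers. Of all genes, 17.1% were lower in DKO against control. The part of these markers in the Nr2f2 result was not tested. Nr6a1, a repressor known from germ cells, was at 17.3, 13.2, 15.5 and 12.2 CPM in Tsc1 L-/- and 8.19, 7.82, 7.8 and 8.06 CPM in DKO livers, with no overlap (log2 fold change -0.85 ± 0.16 and edgeR adjusted p = 0.000552), while control livers had 12.1, 10.4, 10.9 and 8.83 CPM. Control lay between them, and neither passed against it. The log2 fold change was 0.46 ± 0.16 in Tsc1 L-/- (edgeR adjusted p = 0.0908) and -0.39 ± 0.16 in DKO livers (edgeR adjusted p = 0.0646). Nr2c2, testicular receptor 4, was at 16, 13.2, 17.9 and 15.4 CPM in the control livers, 19.7, 19.9, 22.6 and 26.8 CPM in Ppara KO (log2 fold change 0.50 ± 0.17 and edgeR adjusted p = 0.0477), 18.4, 14.5, 23.3 and 20.5 CPM in Cpt2 L-/- and 15.6, 8.24, 13.1 and 14.6 CPM in DKO livers (log2 fold change -0.56 ± 0.18 and edgeR adjusted p = 0.037 against Cpt2 L-/-). Nr2f6, an orphan repressor, was lower in DKO, at 34.3 to 41 CPM, than in control, at 49.2 to 59.8 CPM (log2 fold change -0.48 ± 0.12 and edgeR adjusted p = 0.00492), and Cpt2 L-/- livers (log2 fold change -0.42 ± 0.12 and edgeR adjusted p = 0.0225). Nr2c2 and Nr2f6 overlap Mrps25 and Ocel1 on the opposite strand. Nr2c1 and Nr2f1 changed in 0 comparisons. The Nr2f2 call in Cpt2 L-/- against control was lost without control replicates 3 or 4, or with limma on FPKM (adjusted p up to 0.0959). The Nr2f2 call in DKO against control was lost with limma on FPKM (adjusted p up to 0.0564). The Nr2f2 call in DKO against Tsc1 L-/- was lost with limma on FPKM (adjusted p up to 0.0524). The Nr2c2 call in Ppara KO against control was lost without control replicates 1, 2, 3 or 4 or Ppara KO replicates 3 or 4, or with no filter, or with limma on FPKM (adjusted p up to 0.144). The Nr2c2 call in DKO against Cpt2 L-/- was lost without Cpt2 L-/- replicates 1, 3 or 4 or DKO replicates 2 or 3, or with limma on FPKM, or with all 24 libraries in one fit (adjusted p up to 0.119). The Nr2f6 call in DKO against control was lost with limma on FPKM, or with all 24 libraries in one fit (adjusted p up to 0.0746). The Nr2f6 call in DKO against Cpt2 L-/- was lost without Cpt2 L-/- replicates 3 or 4 or DKO replicates 1 or 3, or with limma on FPKM, or with all 24 libraries in one fit (adjusted p up to 0.151).

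Coregulators, the proteins that receptors recruit, were read from a list of 18 genes, all tested. In Ppara KO against control 8 rose and 1 fell (median log2 fold change 0.52, against 0.02 for all genes). Of all genes, 14.8% were higher and 12.7% lower there, in a comparison that crosses the library sets. Nrip1, a corepressor of metabolic genes, rose from 18.9 to 46.3 CPM on average (log2 fold change 1.28 ± 0.23 and edgeR adjusted p = 0.0032), and Ncoa1, a coactivator, from 27 to 47.6 CPM on average (log2 fold change 0.81 ± 0.15 and edgeR adjusted p = 0.00412). Ppargc1a, the coactivator of the fasting response, fell from 23.9 to 9.46 CPM on average (log2 fold change -1.33 ± 0.38 and edgeR adjusted p = 0.0252). Within a set, Ppara loss in the Cpt2 L-/- background raised 0 coregulators and lowered 2 (median -0.30), beside 13.0% of all genes that changed. In Cpt2 L-/- livers 4 rose and 1 fell against control (median 0.14), no larger a share than the 31.0% of all genes that changed. This comparison also crosses the library sets. Ncor1, the main corepressor of unliganded receptors, rose from 153 to 244 CPM on average (log2 fold change 0.67 ± 0.15 and edgeR adjusted p = 0.00221), and was lower again when Ppara was also lost, going from 244 to 127 CPM on average (log2 fold change -0.94 ± 0.21 and edgeR adjusted p = 0.0202). In Tsc1 L-/- livers 2 rose and 0 fell (median -0.01), beside 6.64% of all genes that changed. Ppargc1b, a coactivator of lipid synthesis and mitochondrial genes, rose from 8.37 to 17.3 CPM on average (log2 fold change 1.05 ± 0.23 and edgeR adjusted p = 0.00873), and Cited2 from 16.7 to 28.9 CPM on average (log2 fold change 0.79 ± 0.18 and edgeR adjusted p = 0.0134). DKO against control had 3 higher and 1 lower (median -0.02), a smaller share than the 36.4% of all genes that changed.

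Each deletion was tested in pairs of comparisons with different libraries. Loss of Cpt2 was compared in Cpt2 L-/- against control and in DKO against Tsc1 L-/-, which share no library. Of the 7 and 13 receptor genes that were lower, 6 were shared (6 of 7 and 6 of 13): Nr0b2, Nr1h5, Nr5a2, Rxra, Nr2f2 and Thrb. Of the 6 and 2 that were higher, 1 was shared, Pparg. Over all genes, 53.6% and 52.2% of the lower genes were shared, and 58.4% and 55.8% of the higher ones. Loss of Tsc1 was compared in Tsc1 L-/- against control and in DKO against Cpt2 L-/-, where 1 of the 3 and 10 lower genes was shared, Nr1i2, against 28.1% and 9.41% over all genes. For Ppara loss, Ppara KO against control and Cpt2 L-/- Ppara KO against Cpt2 L-/- shared 2 of the 8 and 3 lower genes, Ppara and Esrrg, and 1 of the 4 and 2 higher genes, Nr4a1. Over all genes the shares were 14.3% and 29.8% of the lower and 10.0% and 21.6% of the higher genes. Cpt2 loss with Ppara absent, in Cpt2 L-/- Ppara KO against Ppara KO, shared Pparg with Cpt2 L-/- against control, 1 of the 1 and 6 higher genes, against 33.9% and 0.905% over all genes. With so few receptor genes in each list, the shares are a description. In each of these 4 pairs only 1 comparison lies within a library set.

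The interaction terms tested whether one deletion changed the effect of the other. For Tsc1 and Cpt2, 1 of 36 receptor genes passed, Rxrb (log2 fold change -0.66 ± 0.13 and edgeR adjusted p = 0.0153), beside 2.38% of all genes (1.09% higher and 1.28% lower), and 10 receptor genes had an unadjusted p under 0.05. Pparg came closest among the others named here (log2 fold change 0.98 ± 0.30 and edgeR adjusted p = 0.0854). For the other 35 genes the departure of DKO livers from the sum of both single effects did not pass. For Cpt2 and Ppara, 6 of 37 passed, 2 higher and 4 lower, beside 24.0% of all genes (12.0% higher and 12.0% lower). Rxrb (log2 fold change -0.82 ± 0.20 and edgeR adjusted p = 0.00891), Rora (log2 fold change -0.98 ± 0.29 and edgeR adjusted p = 0.0228), Ppard and Nr1i2 were lower in Cpt2 L-/- Ppara KO livers than the sum of the single effects, and Nr1h3 and Nr1h5 were higher. Control is the only group of this interaction from the other library set, so the set and the interaction cannot be told apart. The Rxrb call in the Tsc1 by Cpt2 interaction was lost with all 24 libraries in one fit (adjusted p up to 0.0991).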

How the data were processed

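Liver RNA was sequenced in 24 libraries, 4 for each of 6 genotypes (Trizol, stranded mRNA library, single reads of 75 bases, per the labels and the methods). The authors deposited whole-number read counts and FPKM values for 35275 genes in separate tables, with Ensembl identifiers and GRCm38 coordinates. FPKM recomputed from counts, gene lengths and totals differed from the deposited FPKM by at most 5e-06. The submitters' processing notes name Bowtie 0.12.2, TopHat, STAR 2.5, STAR-Fusion, HTSeq 0.6.1, DESeq2 and edgeR, with no role or order, and the builds mm8 and mm9. Which of them made the tables, and the strand setting of the counting, are not given in the sources used here. Reads in the stretches where genes overlap on opposite strands therefore cannot be told apart.

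Counts were tested by the quasi-likelihood test of edgeR 4.0.16 in R 4.3.3, with TMM scaling, a filter on low counts (filterByExpr, minimum count 10 and minimum total count 15) and Benjamini-Hochberg adjustment over all genes tested, at an adjusted p-value under 0.05. Control, Tsc1 L-/-, Cpt2 L-/- and DKO libraries shared 1 fit of 16 libraries, and the comparisons with Ppara KO and Cpt2 L-/- Ppara KO used the libraries of their groups. The number of genes tested was 13641, 12955, 12936, 12784 and 13615 in the fit of 16 libraries, in Ppara KO against control, in Cpt2 L-/- Ppara KO against Cpt2 L-/-, in Cpt2 L-/- Ppara KO against Ppara KO and in the Cpt2 by Ppara interaction. The standard error is the log2 fold change divided by the square root of F. CPM are TMM-scaled over 24 libraries and given for description. Totals were 14470968 to 20371204 counts, which limits the precision of genes with few counts. The scripts were tested on simulated data. No 2 libraries of a group agreed within sampling noise, with a chi-square per gene of 24.1 to 263 over 36 pairs.

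The receptor genes, the lists of their targets, coregulators and cell type markers, and the tests were chosen with earlier results of these data known. By rule, the value of each library is given for Ppara and for the receptor genes that passed in a comparison, at most the 6 of largest absolute log2 fold change in each, and the others are given mostly by ranges. Target genes named are the called members of a list with the largest changes, at most 4 a list and comparison, with a mean of at least 1 CPM. Alternatives were RLE size factors, no filter, DESeq2 1.42.0, limma 3.58.1 on log2(FPKM + 1), all 24 libraries in one fit, the replicate number as a block, a log2 fold change of at least 1, and each library left out in turn. Figures were drawn with matplotlib 3.10.9. Promoters came from RefSeq (GRCm38.p6).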

Additional observations from a re-analysis of the deposited data

Results flagged for a closer look

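Of 202 sets of 4 libraries of one genotype examined, 1 for each receptor gene and group with a mean of at least 1 CPM, 11 held a library far from the other 3 by Dixon's test, and chance alone gives about 1 in 20. The values are in CPM. Thra was at 10.3 in DKO replicate 2 against 12.1 to 12.4 in the other 3 libraries, and Ppara was at 168 in the same library against 257 to 269. Thrb was at 28.4 in Cpt2 L-/- Ppara KO replicate 2 against 23.3 to 24.1. Pparg was at 27.1 in Cpt2 L-/- replicate 4 against 21.2 to 22.0, and at 46.0 in Cpt2 L-/- Ppara KO replicate 1 against 34.3 to 36.1. Nr1d1 was at 42.5 in Cpt2 L-/- Ppara KO replicate 4 against 21.3 to 24.8. Nr2f1 was at 0.422 in control replicate 1 against 1.24 to 1.39. Nr0b2 was at 9.29 in Cpt2 L-/- replicate 3 against 0.852 to 1.84. Nr4a1 stood apart in 3 groups, at 0.895 in control replicate 2 against 1.63 to 1.74, at 7.26 in Tsc1 L-/- replicate 3 against 1.23 to 2.06 and at 8.49 in DKO replicate 4 against 0.875 to 2.15.

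The effect of a deletion differed between backgrounds by an interaction term for a few receptor genes, given as log2 fold changes of the interaction. Between Tsc1 and Cpt2 loss, Rxrb had -0.66. Between Cpt2 and Ppara loss, Rxrb had -0.82, Ppard -1.32, Nr1i2 -0.99, Rora -0.98, Nr1h3 0.79 and Nr1h5 2.57. All of these interactions cross the library sets, from which they cannot be told apart.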

How the results depend on the processing

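Of the 81 calls of receptor genes, all kept their direction under every alternative, and 81 passed with RLE size factors and with DESeq2. The calls that passed were 66 with no filter, 60 with all 24 libraries in one fit and 57 with limma on log2(FPKM + 1), and with a library left out 521 of 704 values passed. The number of receptor genes called moved by over 1.5 times as follows. In Tsc1 L-/- against control it went from 3 to 1 with a log2 fold change of at least 1, and in Cpt2 L-/- against control from 13 to 6 with all 24 libraries and 3 with the fold limit. The fold limit left 3 of 15 in DKO against control, 4 of 15 in DKO against Tsc1 L-/-, 7 of 12 in Ppara KO against control and 2 of 6 in the Cpt2 by Ppara interaction. In DKO against Cpt2 L-/- the 10 calls became 5 with limma, 4 with all 24 libraries and 0 with the fold limit. In the Tsc1 by Cpt2 interaction 1 became 2 with DESeq2, 0 with all 24 libraries and 0 with the fold limit, and in Cpt2 L-/- Ppara KO against Ppara KO 1 became 2 with DESeq2 and 9 with all 24 libraries. The cause was not tested, apart from the fold limit, which removes smaller changes by construction.

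With 1 library left out, the counts ranged from 1 to 3 in Tsc1 L-/- against control (1 without control replicate 3 or 4 or Tsc1 L-/- replicate 4), and from 6 to 12 in Cpt2 L-/- against control (6 to 8 without control replicate 1, 3 or 4 or Cpt2 L-/- replicate 1, 3 or 4). They ranged from 13 to 17 in DKO against control, from 12 to 15 in DKO against Tsc1 L-/-, and from 4 to 9 in DKO against Cpt2 L-/- (4 to 6 without Cpt2 L-/- replicate 3 or 4 or any 1 of the 4 DKO libraries). The Tsc1 by Cpt2 interaction had 1 to 2 (2 without control replicate 1 or Tsc1 L-/- replicate 3). Ppara KO against control had 7 to 14 (7 without control replicate 3 or 4 or Ppara KO replicate 3). Cpt2 L-/- Ppara KO against Cpt2 L-/- had 3 to 6 (3 without replicate 2 of either group), and against Ppara KO 0 to 2 (0 without Ppara KO replicate 2, 3 or 4 or Cpt2 L-/- Ppara KO replicate 1, 2 or 3, and 2 without Ppara KO replicate 1 or Cpt2 L-/- Ppara KO replicate 4). The Cpt2 by Ppara interaction had 2 to 8 (2 to 3 without control replicate 3, Cpt2 L-/- replicate 1, 3 or 4 or Ppara KO replicate 3).

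The replicate numbers did not pair the libraries, since deviations of same-numbered libraries correlated between -0.255 and 0.165 and in 0 comparisons were all correlations over 0.1. With the replicate block, 2 receptor genes passed for Tsc1 L-/-, 13 for Cpt2 L-/-, 15 for DKO and 9 for Ppara KO livers when each was set against control. DKO livers then gave 10 when set against Cpt2 L-/- livers and 16 against Tsc1 L-/- livers, Cpt2 L-/- Ppara KO livers gave 6 against Cpt2 L-/- and 1 against Ppara KO livers, and the interactions gave 1 for Tsc1 with Cpt2 and 6 for Cpt2 with Ppara. Of the 81 calls, 73 passed with the block. The 8 others, with adjusted p from 0.0507 to 0.0742, were Esrrg in Tsc1 L-/- and in DKO against control, Ppard in Cpt2 L-/- against control, Nr3c2 in DKO against Cpt2 L-/-, Nr2c2, Nr5a2 and Rxrb in Ppara KO against control, and Nr1h3 in the Cpt2 by Ppara interaction. Depth limits the lowest genes, Vdr, Hnf4g, Nr4a3, Nr4a2, Nr2f1 and Esrrg, with few counts in many libraries.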

Other observations

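Loss of Ppara in the Cpt2 L-/- background raised 4 of 10 Car and Pxr targets and lowered 0 (median log2 fold change 0.52, against 0.02 for all genes). Of all genes, 6.88% were higher. Neither Nr1i3 nor Nr1i2 passed in this comparison, which lies within a library set. Nr1i3 was at 147, 155, 185 and 76 CPM in Cpt2 L-/- and 76.7, 57.7, 88.8 and 120.0 CPM in Cpt2 L-/- Ppara KO livers (log2 fold change -0.72 ± 0.29 and edgeR adjusted p = 0.12). Of the 8 Lxr targets, 1 rose and 5 fell in DKO against Tsc1 L-/- livers (median -0.88, against 0.00 for all genes), while the log2 fold change of Nr1h3 there was 0.08 ± 0.11. Of all genes, 16.9% were higher and 15.2% lower. In the Cpt2 by Ppara interaction 7 of 18 coregulators were lower and 1 was higher (median -0.98, against 0.03 for all genes), a comparison that crosses the library sets. Of all genes, 12.0% were lower and 12.0% higher.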
